A study of Canis lupus familiaris with 8 samples.

Results

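In MDCK I cells, an epithelial line from canine kidney, 126 of the 32704 genes in the count table were raised at least 4-fold by hyperosmolality, lowered by both siRNA constructs against Nfat5, and still clearly above their isosmotic level with either construct. They are described here gene by gene. The members were chosen from the measured values. Counts were divided by median-of-ratios size factors (a scaling by each library's median ratio to a common reference), and m was taken as log2 of a group's mean plus 1. A gene was a member if 1 group or more had a mean of at least 400, if m rose by at least 2 from Neg-siRNA (300 mOsm) to Neg-siRNA (500 mOsm), if m was lower by at least 0.8 with each Nfat5-siRNA than in Neg-siRNA (500 mOsm), and if it stayed at least 0.7 above Neg-siRNA (300 mOsm) with each. Of the 138 genes that met these thresholds, 12 were left out by name, among them the osmolyte carriers SLC6A6, SLC6A12 and SLC5A3, the aldose reductase AKR1B1 and the metallothioneins MT1X, MT1E and MT2A. Symbols were known for 78 of the 126 members, through a gene list that the study published, and 48 are known only by an Ensembl identifier.

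The series held 4 groups of 2 libraries, and all cells received 100 nM siRNA. Neg-siRNA (300 mOsm) was the isosmotic control. The 3 groups at 500 mOsm (1 with Neg-siRNA and 1 with each of Nfat5-1-siRNA and Nfat5-2-siRNA) spent 24 h in medium made hyperosmotic with raffinose, a sugar. The control construct targets Slc22a6, a gene that these cells do not express according to the labels, and untransfected cells were not analysed here. In every group, replicate 1 was passage 15 of the line and replicate 2 was passage 17, so that a p-value measures the spread between passages of 1 cell line. The total count per library ran from 34564103 to 46043788. None of the 9 kidney epithelial markers and none of the 7 markers of other cell types that were looked for could be paired with an identifier, so the cell type was not checked against markers here.

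Nfat5, also called TonEBP, is a transcription factor of the Rel family that accumulates in the nucleus when the medium becomes hypertonic. In the renal medulla it is known for raising carriers and enzymes that load the cell with compatible osmolytes, and for raising chaperones. Hyperosmotic stress also acts through routes that do not need Nfat5, such as p38 and other stress kinases and heat shock factors. The gene taken as Nfat5, ENSCAFG00000020254, was identified only by its place next to NQO1, where RefSeq has NFAT5. Its normalised count was 889 and 971 at 300 mOsm with Neg-siRNA, 3485 and 3164 at 500 mOsm with Neg-siRNA, 4249 and 3623 at 500 mOsm with Nfat5-1-siRNA and 3029.8 and 3067 at 500 mOsm with Nfat5-2-siRNA, in replicates 1 and 2. It was higher in each library at 500 mOsm than at 300 mOsm (log2 difference 1.85, SE 0.15, adjusted p = 1.07e-05, edgeR) by edgeR's test with the Benjamini-Yekutieli adjustment, used throughout. The libraries labelled Nfat5-1-siRNA stood above both Neg-siRNA libraries at 500 mOsm and those labelled Nfat5-2-siRNA slightly below both, and neither difference passed the test (log2 differences 0.22, SE 0.14, and −0.17, SE 0.14, adjusted p = 1 for both, edgeR). The counts of the targeted gene therefore do not check the siRNA labels at the mRNA level, and protein was not analysed here. Genes known to be driven by Nfat5 were lower in the libraries labelled with either construct than in Neg-siRNA (500 mOsm), with log2 differences of −2.19 and −2.05 for the aldose reductase AKR1B1 and −1.27 and −1.42 for the taurine carrier SLC6A6. Both met the thresholds above and were left out by name. Their symbols came from a gene list that the study chose on these same libraries for a fall with both constructs. Their direction is therefore not an independent check of the labels.

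Over the 126 members the median osmotic rise was 9.53-fold, with quartiles of 5.78-fold and 26.9-fold. With Nfat5-1-siRNA the median member was 2.56-fold lower than in Neg-siRNA (500 mOsm), and with Nfat5-2-siRNA it was 2.59-fold lower. The median member was still 3.63-fold and 3.497-fold above Neg-siRNA (300 mOsm) with the 2 constructs. These values chose the members and are given as a description, with no test. Together the members took 0.463% ± 0.0192 of all counts at 300 mOsm and 4.31% ± 0.345 at 500 mOsm with Neg-siRNA, 2.03% ± 0.658 with Nfat5-1-siRNA and 2.11% ± 0.388 with Nfat5-2-siRNA (SD, n = 2). In these bulk libraries, fewer cells that express a gene and less RNA per cell cannot be told apart.

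**Figure D1:**
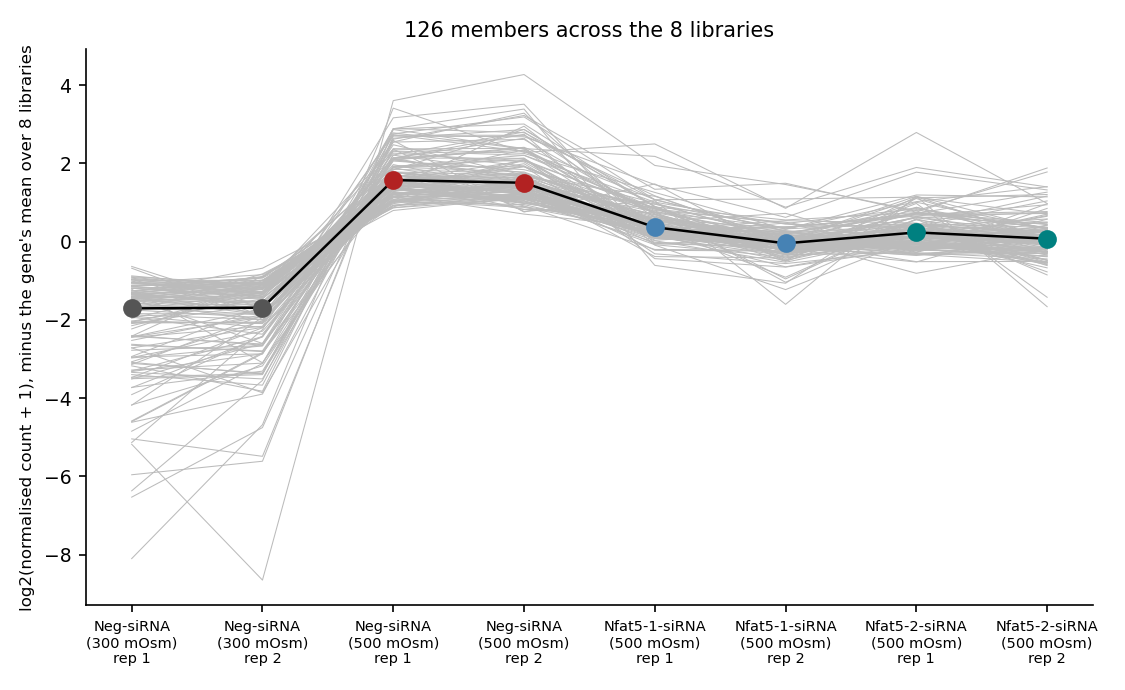
Each grey line is 1 of the 126 members across the 8 libraries, as log2 of the normalised count plus 1 minus the gene's own mean over the libraries, and the coloured points joined by the black line are the medians over members. The medians were −1.71 and −1.69 at 300 mOsm and 1.57 and 1.50 at 500 mOsm with Neg-siRNA, 0.36 and −0.05 with Nfat5-1-siRNA, and 0.23 and 0.07 with Nfat5-2-siRNA.

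In 121 of the 126 members all 4 Nfat5-siRNA libraries lay between the 2 Neg-siRNA groups with no overlap, an order that 4.38% of all 19835 tested genes had. The 5 exceptions, named after their values were seen, are known only by identifiers (ENSCAFG00000023899, ENSCAFG00000020184, ENSCAFG00000006942, ENSCAFG00000002519 and ENSCAFG00000008335). In ENSCAFG00000023899, for example, the passage 17 libraries with the constructs (63.9 and 61.2) lay below both isosmotic libraries (106 and 86.2). By edgeR's quasi-likelihood test (adjusted p under 0.05), 125 of the members were higher with hyperosmolality, where 11.3% of all genes tested were. Lower counts were called for 91 members with Nfat5-1-siRNA, against 4.53% of all genes, and for 98 with Nfat5-2-siRNA, against 7.38%. Counts still above Neg-siRNA (300 mOsm) were called for 114 and 111 members, against 13.2% and 12.7% of all genes. With the passage as a block, a term that compares libraries within a passage, 126 members were called lower with each construct, against 11.9% of all genes with Nfat5-1-siRNA and 15.3% with Nfat5-2-siRNA. The rule used all 5 contrasts, so nothing is read from these numbers.

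The members are one outcome among the genes that hyperosmolality raised strongly. Of the 9951 genes with a group mean of at least 400, 361 rose by 2 or more on the log2 scale. Of these, 138 met all thresholds (the 126 members and the 12 genes left out by name). A further 26 were lowered by both constructs to less than 0.7 above the isosmotic level with at least 1 of them, 62 were lowered by 0.8 or more with only 1 construct, and 135 with neither. The thresholds fell within a continuous range. The 3 members with the smallest rise had 2.00 to 2.03 (nearest ENSCAFG00000034430), and the 3 genes that failed only this threshold by the least had 1.96 to 1.99 (nearest ENSCAFG00000014621). For the fall with Nfat5-1-siRNA the 3 nearest members had −0.83 to −0.81 (ABCC1) and the 3 nearest genes outside −0.79 to −0.78 (PPM1H), and with Nfat5-2-siRNA the values were −0.81 to −0.80 (ENSCAFG00000006942) and −0.78 to −0.74 (ENSCAFG00000032573). For the level kept above 300 mOsm they were 0.70 to 0.78 (SYNE3) and 0.38 to 0.66 (ENSCAFG00000009317) with Nfat5-1-siRNA, and 0.71 to 0.83 (CCNY) and 0.49 to 0.66 (SH3GL3) with Nfat5-2-siRNA. The lowest 3 maximal means among members were 431 to 445 (NTNG2), and 242 genes missed only the minimum of 400, the nearest 3 with 382 to 391 (ENSCAFG00000040278).

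**Figure D2:**
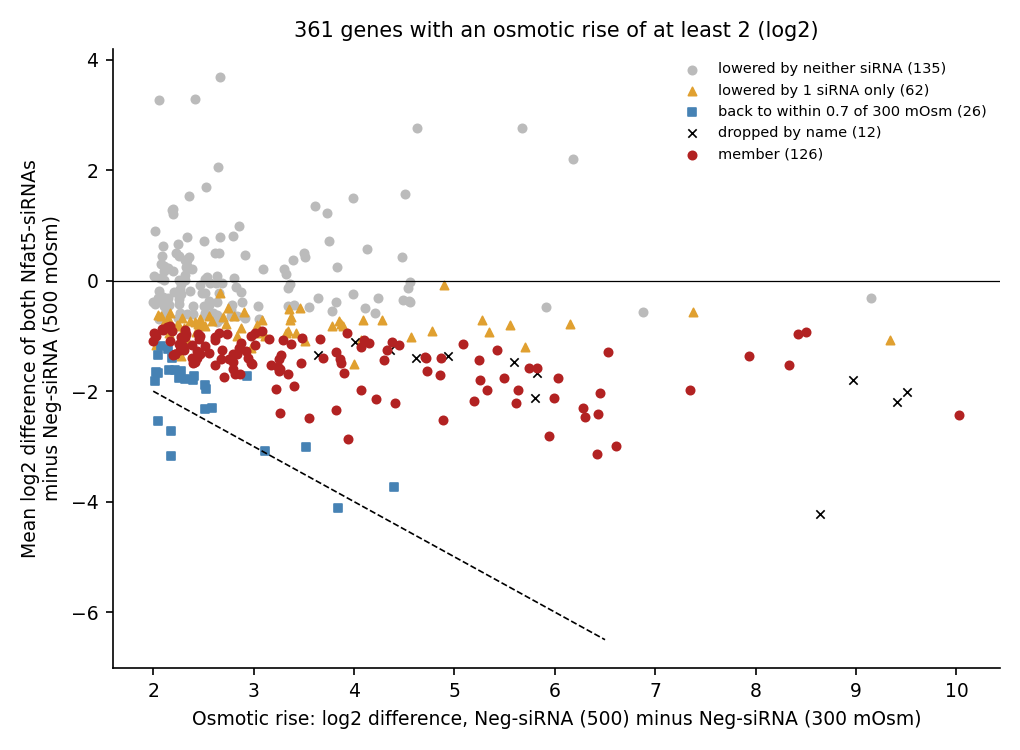
Each point is 1 of the 361 genes with a group mean of at least 400 and an osmotic rise of at least 2. The x axis is the osmotic rise and the y axis the mean change with both Nfat5-siRNAs, both as log2 differences, and the dashed line marks a fall as large as the rise. The 126 members (red circles) lie between the line and 0 by construction, and the 27 members with a rise above 5 have a median fall of −1.98.

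The share of the rise undone, the mean fall with both constructs as a percentage of the rise on the log2 scale, ran from 10.9% to 73.3% with a median of 42.0%. As a share of the linear rise the median was 69.6%. Members with larger rises had larger falls, but on the log2 scale less than in proportion. In bands set after seeing the data, the 55 members with a rise of 2 to 3 had a median fall of −1.22 and a median share undone of 49.1%, the 44 with a rise of 3 to 5 had −1.41 and 37.2%, and the 27 with a rise above 5 had −1.98 and 31.4%. On the linear scale the share did not follow this order, with medians of 69.5%, 67.4% and 75.05% in the same bands. The rule forces part of the order on the log2 scale, since a fall of at least 0.8 is a larger share of a small rise than of a large one.

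The 5 largest rises were those of ENSCAFG00000008366, ENSCAFG00000006942, ENSCAFG00000013762, PGA and KCNJ15. PGA carries the symbol of pepsinogen A, the precursor of a gastric protease with similar copies in many mammals, and KCNJ15 encodes an inwardly rectifying potassium channel. All but ENSCAFG00000013762 were nearly undetected at 300 mOsm, where both libraries together held 11 counts of ENSCAFG00000008366, 8 of ENSCAFG00000006942, 2 of PGA and 6 of KCNJ15. The ratio of summed counts at 500 mOsm to 300 mOsm, adjusted for size factors, was 1110.0-fold (95% counting interval 620.1 to 2224) for ENSCAFG00000008366, 500.4-fold (95% counting interval 254 to 1160.0) for ENSCAFG00000006942, 689.8-fold (95% counting interval 191 to 5701) for PGA and 316-fold (95% counting interval 145 to 862) for KCNJ15. These exact intervals cover counting error only. ENSCAFG00000013762 was measured from the start and reached the highest count of all members, with 594 and 756 at 300 mOsm and 269800.0 and 192436 at 500 mOsm with Neg-siRNA, 167598 and 68149 with Nfat5-1-siRNA and 137698 and 97502 with Nfat5-2-siRNA. Its mean rose 342-fold, and the constructs lowered it 1.96-fold and 1.97-fold, so that 11.6% of the log2 rise was undone. The smallest shares undone were those of ENSCAFG00000006942 (10.9%), ENSCAFG00000013762, KCNJ15 (17.1%), PGA (18.4%) and ADORA2A (19.9%), and 4 of these 5 also had one of the 5 largest rises. The share of ENSCAFG00000006942 was 6.67% within passage 15 and 19.6% within passage 17, and its isosmotic level rests on 0 and 8 counts.

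The largest shares undone were those of SYNE3 (73.3%), CEACAM16 (72.7%), ISYNA1 (69.9%), CDC42SE2 (64.3%) and PHACTR2 (61.99%). SYNE3 encodes nesprin-3, which ties the nuclear envelope to intermediate filaments. Its normalised counts were 295 and 399.6 at 300 mOsm and 3059 and 3614 at 500 mOsm with Neg-siRNA, 608 and 523 with Nfat5-1-siRNA and 737 and 691 with Nfat5-2-siRNA. All 4 Nfat5-siRNA libraries stood above both isosmotic libraries and far below both Neg-siRNA (500 mOsm) libraries. CEACAM16, a secreted adhesion molecule of the inner ear, had 47.7 and 37.7 at 300 mOsm and 531 and 809 at 500 mOsm with Neg-siRNA, 113 and 50.7 with Nfat5-1-siRNA and 128 and 75.1 with Nfat5-2-siRNA. The isosmotic and the Nfat5-siRNA libraries of CEACAM16 came close to each other but did not overlap. CEACAM16 and PGA belong to families of similar genes, and their counts are uncertain where reads match several copies.

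The members included 9 genes of the extracellular matrix and its crosslinking. They were the lysyl oxidases LOX and LOXL2, which crosslink collagen and elastin, the lysyl hydroxylase PLOD2, which prepares collagen for stable crosslinks, the matricellular protein THBS1 (thrombospondin-1), the matrix protein CCDC80, the collagen uptake receptor MRC2, the protease inhibitor SERPINE2, MEGF11 and the membrane-anchored netrin NTNG2. Their log2 rises ran from 2.46 to 5.94 and their shares undone from 27.3% to 61.3%. Of the 27 genes listed, 11 could be paired with an identifier and 9 were members. Hyperosmolality raised 11 of the 11 and lowered 0, and the calls were 8 lower and 1 higher with Nfat5-1-siRNA and 10 lower and 1 higher with Nfat5-2-siRNA (adjusted p under 0.05, edgeR, where 11.3% of all genes were higher and 4.53% and 7.38% lower). The rule used these contrasts for the members, so nothing is read from such counts for this or any other list. Genes were paired through a list that the study chose on these same libraries for significant change, so these counts, and those of the other lists below, are not independent evidence of a direction.

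LOX (chromosome 11, 12022969 to 12040277 of CanFam 3.1) had normalised counts of 7589 and 13055 at 300 mOsm with Neg-siRNA, 107507 and 87891 at 500 mOsm with Neg-siRNA, 39399.7 and 25395 at 500 mOsm with Nfat5-1-siRNA and 39660.0 and 27631 at 500 mOsm with Nfat5-2-siRNA. All 4 Nfat5-siRNA libraries lay between the Neg-siRNA groups, and the 2 constructs overlapped each other. The mean of LOX rose 9.47-fold, and with the constructs it was 3.02-fold and 2.904-fold lower. LOXL2 (chromosome 25, 34126275 to 34185939) was scarce at 300 mOsm, with 166 and 202 at 300 mOsm and 6239.7 and 4697 at 500 mOsm with Neg-siRNA, 1486 and 468 with Nfat5-1-siRNA and 1351 and 503 with Nfat5-2-siRNA. It rose 29.7-fold, and in both Nfat5-siRNA groups the passage 17 library was clearly below the passage 15 library. PLOD2 (chromosome 23, 41289828 to 41383170) had the largest share undone of this group, 57.2% and 65.4% with the 2 constructs, and counts of 3203 and 3065 at 300 mOsm and 44324 and 44014 at 500 mOsm with Neg-siRNA, 11481 and 7982 with Nfat5-1-siRNA and 8247 and 7413 with Nfat5-2-siRNA. THBS1 (chromosome 30, 6770135 to 6785062) was at the other end with NTNG2, with 25.1% and 29.5% undone, and counts of 9124 and 7696 at 300 mOsm and 178096 and 120414 at 500 mOsm with Neg-siRNA, 93872 and 51306 with Nfat5-1-siRNA and 65773 and 62082 with Nfat5-2-siRNA. THBS1 thus kept a count many times its isosmotic level in every Nfat5-siRNA library, whereas PLOD2 came much closer to it.

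Listed matrix genes that were not members behaved otherwise. PLOD1, the lysyl hydroxylase of helical collagen, had counts of 4729.6 and 5392 at 300 mOsm and 16124 and 14808 at 500 mOsm with Neg-siRNA, 5393 and 4638 with Nfat5-1-siRNA and 4089.7 and 3793 with Nfat5-2-siRNA, so both constructs brought it to its isosmotic level or below. CEMIP, a protein that binds and breaks down hyaluronan, had 216 and 81.4 at 300 mOsm and 4863 and 2564 at 500 mOsm with Neg-siRNA, 25089 and 21581 with Nfat5-1-siRNA and 27819.5 and 26966 with Nfat5-2-siRNA. It rose with hyperosmolality (log2 difference 4.63) and rose again with Nfat5-1-siRNA (2.65, adjusted p = 0.0020, edgeR) and Nfat5-2-siRNA (2.88, adjusted p = 0.00076, edgeR), in the opposite direction to the members.

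A laminin chain and a collagen receptor were both raised by hyperosmolality. LAMA3 encodes a chain of laminin-332, a basement membrane protein on which epithelial cells anchor and move, and ITGA2 encodes the alpha subunit of a collagen-binding integrin. Of the 12 genes listed, 4 could be paired with an identifier and 3 were members. With hyperosmolality 3 of the 4 were called higher and 1 lower, and the calls were 3 lower and 0 higher with Nfat5-1-siRNA and 4 lower and 0 higher with Nfat5-2-siRNA (adjusted p under 0.05, edgeR, where 11.3% of all genes were higher and 4.53% and 7.38% lower). LAMA3 (chromosome 7, 64405533 to 64655273) had counts of 11219.5 and 13875 at 300 mOsm and 63899 and 67444 at 500 mOsm with Neg-siRNA, 30736 and 27169 with Nfat5-1-siRNA and 29302 and 30714 with Nfat5-2-siRNA. ITGA2 (chromosome 4, 62170600 to 62268983) had 5227 and 5546 at 300 mOsm and 28951 and 23152 at 500 mOsm with Neg-siRNA, 13412 and 10482 with Nfat5-1-siRNA and 11320.0 and 9646 with Nfat5-2-siRNA. For both genes all groups at 500 mOsm were above both isosmotic libraries, and the Nfat5-siRNA libraries did not overlap those with Neg-siRNA. The rises were 5.23-fold for LAMA3 and 4.84-fold for ITGA2, and 48.4% and 53.6% of the log2 rise was undone. ITGB6, an integrin subunit of injured epithelium, moved the other way with hyperosmolality, with 2505 and 2655 at 300 mOsm and 1203 and 1354 at 500 mOsm with Neg-siRNA, 2148 and 2132 with Nfat5-1-siRNA and 892 and 729.9 with Nfat5-2-siRNA.

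Membrane transport was represented by channels, carriers, a pump subunit and a regulatory kinase. AQP1 is the water channel of the proximal tubule and descending thin limb, ATP1B3 a beta subunit of the sodium pump, KCNJ15 and ANO4 a potassium channel and an anoctamin, NIPA1 a magnesium transporter and STK39 the kinase SPAK, which activates sodium-potassium-chloride cotransport. TMEM184B is a membrane protein of a family related to the organic solute transporter. Of the 22 genes listed, 10 could be paired with an identifier and 8 were members. Hyperosmolality raised 10 of the 10 and lowered 0, and the calls were 8 lower and 0 higher with Nfat5-1-siRNA and 9 lower and 0 higher with Nfat5-2-siRNA (adjusted p under 0.05, edgeR, where 11.3% of all genes were higher and 4.53% and 7.38% lower). AQP1 (chromosome 14, 43592297 to 43605779) had normalised counts of 2.75 and 26.7 at 300 mOsm and 1181 and 1504 at 500 mOsm with Neg-siRNA, 126 and 141 with Nfat5-1-siRNA and 129 and 213 with Nfat5-2-siRNA. With 3 and 22 counts at 300 mOsm, its rise was 103-fold (95% counting interval 69.8 to 159.9), and the constructs lowered it 10.1-fold and 7.84-fold, the largest fall of the transport members. ATP1B3 (chromosome 23, 37684435 to 37726702) had 1789.7 and 2162 at 300 mOsm and 15738 and 12480.0 at 500 mOsm with Neg-siRNA, 6811 and 5628 with Nfat5-1-siRNA and 5453 and 4798 with Nfat5-2-siRNA. Its mean rose 7.14-fold and was 2.27-fold and 2.75-fold lower with the constructs.

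ATP1B1, another beta subunit of the sodium pump, changed in the same directions but by less, and fell short of the rise threshold and of both fall thresholds. It had 3658 and 3566 at 300 mOsm and 10351 and 9438 at 500 mOsm with Neg-siRNA, 6367 and 6587 with Nfat5-1-siRNA and 6213 and 5982 with Nfat5-2-siRNA, with a log2 rise of 1.45 and changes of −0.61 and −0.70 with the 2 constructs (adjusted p = 0.049 and 0.012, edgeR). TMEM184B (chromosome 10, 26423924 to 26474431) had 3801 and 3755 at 300 mOsm and 32476 and 28621 at 500 mOsm with Neg-siRNA, 14800.3 and 11793 with Nfat5-1-siRNA and 15259 and 12457 with Nfat5-2-siRNA. The replicates of TMEM184B differed little beside the gaps between groups, and 39.8% and 37.8% of its rise was undone. KCNJ15 (chromosome 31, 33385755 to 33386885), a gene with 1 exonic stretch, had 3.67 and 2.43 at 300 mOsm and 997 and 985 at 500 mOsm with Neg-siRNA, 421 and 235 with Nfat5-1-siRNA and 525 and 383 with Nfat5-2-siRNA. Every Nfat5-siRNA library stayed far above the isosmotic ones, although the isosmotic value rests on 6 counts.

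A chaperone and a heat shock factor were also members. HSPH1 encodes Hsp110, a nucleotide exchange factor of Hsp70 that keeps unfolded proteins soluble, and HSF2 a transcription factor that works with HSF1. Of the 15 genes listed, 3 could be paired with an identifier and 2 were members. With hyperosmolality 3 of the 3 were called higher and 0 lower, and the calls were 3 lower and 0 higher with Nfat5-1-siRNA and 3 lower and 0 higher with Nfat5-2-siRNA (adjusted p under 0.05, edgeR, where 11.3% of all genes were higher and 4.53% and 7.38% lower). HSPH1 (chromosome 25, 8972958 to 9000762) had counts of 3356 and 3547 at 300 mOsm and 108009 and 92716 at 500 mOsm with Neg-siRNA, 51394 and 26876 with Nfat5-1-siRNA and 45721 and 27441 with Nfat5-2-siRNA, a rise of 29.1-fold. Of this rise 27.9% and 29.95% was undone, and with both constructs passage 17 lay below passage 15. HSF2 (chromosome 1, 61776530 to 61810619) had 388 and 438 at 300 mOsm and 2914 and 2912 at 500 mOsm with Neg-siRNA, 1234 and 959.9 with Nfat5-1-siRNA and 788 and 684 with Nfat5-2-siRNA, and 50.02% and 70.4% of its rise was undone. DNAJB1, an Hsp40 cochaperone and a typical heat shock gene, was not a member. Its counts were 4146 and 4384 at 300 mOsm and 6976 and 7333 at 500 mOsm with Neg-siRNA, 4258 and 3914 with Nfat5-1-siRNA and 4141 and 3604 with Nfat5-2-siRNA, so it rose little and returned to its isosmotic level.

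Of the calcineurin list, 1 of 11 genes could be paired. It was RCAN1 (chromosome 31, 29907733 to 30002322), an inhibitor of the phosphatase calcineurin that is itself a target of calcineurin and NFAT signalling. RCAN1 had counts of 1234 and 1083 at 300 mOsm and 23113 and 25016 at 500 mOsm with Neg-siRNA, 13539 and 8881 with Nfat5-1-siRNA and 12501 and 9808 with Nfat5-2-siRNA. Its 20.8-fold rise was undone by 25.2% and 25.4% with the 2 constructs, below the lower quartile of the members.

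Metabolic members included an enzyme of osmolyte synthesis. ISYNA1 makes inositol phosphate from glucose 6-phosphate and so feeds the synthesis of myo-inositol, an organic osmolyte of the renal medulla. IDH1 supplies cytosolic NADPH, BCAT1 transaminates branched-chain amino acids, ARG2 is the mitochondrial arginase, AMPD3 deaminates AMP, AK7 is an adenylate kinase of motile cilia, CYP4B1 a fatty acid and xenobiotic hydroxylase, PM20D2 a peptidase and PIR an iron-binding redox protein. Of the 20 genes listed, 10 could be paired with an identifier and 9 were members. Hyperosmolality raised 9 of the 10 and lowered 1, and the calls were 10 lower and 0 higher with Nfat5-1-siRNA and 10 lower and 0 higher with Nfat5-2-siRNA (adjusted p under 0.05, edgeR, where 11.3% of all genes were higher and 4.53% and 7.38% lower). ISYNA1 (chromosome 20, 44595241 to 44599380) had counts of 453 and 479.8 at 300 mOsm and 6190.2 and 4747 at 500 mOsm with Neg-siRNA, 1002 and 843 with Nfat5-1-siRNA and 1072 and 1002 with Nfat5-2-siRNA, and 72.3% and 67.6% of its rise was undone. IDH1 (chromosome 37, 16512895 to 16531352) had 2939 and 2790.1 at 300 mOsm and 30301 and 27704 at 500 mOsm with Neg-siRNA, 11014 and 8746 with Nfat5-1-siRNA and 8546 and 7802 with Nfat5-2-siRNA, and ARG2 (chromosome 8, 41587387 to 41659960) had 10567 and 14092 at 300 mOsm and 67732 and 65519 at 500 mOsm with Neg-siRNA, 33108 and 22809 with Nfat5-1-siRNA and 25066 and 20325 with Nfat5-2-siRNA. IDH1 rose 10.1-fold and ARG2 5.404-fold, with all 4 Nfat5-siRNA libraries between the Neg-siRNA groups. The mitochondrial IDH2 fell with hyperosmolality and fell further with both constructs, with 31273 and 27829 at 300 mOsm and 12707 and 13752 at 500 mOsm with Neg-siRNA, 4002 and 3415 with Nfat5-1-siRNA and 3761 and 3952 with Nfat5-2-siRNA, unlike IDH1. BCAT1 (chromosome 27, 22569996 to 22636850) had 5130.4 and 5731 at 300 mOsm and 39634 and 33853 at 500 mOsm with Neg-siRNA, 15579 and 11998 with Nfat5-1-siRNA and 13813 and 13645 with Nfat5-2-siRNA, with nearly equal shares undone of 51.3% and 51.5%.

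Among the 8 members of glycosylation and secretion the log2 rise ran from 2.09 to 4.72. MAN1A1 trims mannose from N-glycans in the Golgi, GALNT10 starts mucin-type O-glycans, B3GLCT adds glucose to O-linked fucose on thrombospondin repeats, GOLM1 is a Golgi membrane protein, SCAMP5 and SYT12 belong to families of vesicle trafficking proteins, AGFG2 resembles an Arf GTPase-activating protein and STARD7 carries phosphatidylcholine to mitochondria. Of the 12 genes listed, 9 could be paired with an identifier and 8 were members. With hyperosmolality 9 of the 9 were called higher and 0 lower, and the calls were 8 lower and 0 higher with Nfat5-1-siRNA and 9 lower and 0 higher with Nfat5-2-siRNA (adjusted p under 0.05, edgeR, where 11.3% of all genes were higher and 4.53% and 7.38% lower). GOLM1 (chromosome 1, 73612235 to 73652350) had counts of 7004 and 5681 at 300 mOsm and 27701 and 26476 at 500 mOsm with Neg-siRNA, 15545 and 13734 with Nfat5-1-siRNA and 15205 and 13576 with Nfat5-2-siRNA. MAN1A1 (chromosome 1, 59106601 to 59273494) had 1836 and 2731 at 300 mOsm and 19676 and 23872 at 500 mOsm with Neg-siRNA, 8601 and 7282 with Nfat5-1-siRNA and 8276 and 8576 with Nfat5-2-siRNA. SCAMP5 (chromosome 30, 38020508 to 38029576) had 172 and 244 at 300 mOsm and 3960.1 and 4901 at 500 mOsm with Neg-siRNA, 1192 and 754 with Nfat5-1-siRNA and 1186 and 673 with Nfat5-2-siRNA. The shares undone were 42.98% for GOLM1, 43.4% for MAN1A1, 50.3% for SCAMP5, 30.1% for B3GLCT and 26.3% for AGFG2, and no library of the Nfat5-siRNA groups overlapped a Neg-siRNA group. MGAT5, which branches N-glycans, had 1705 and 1557 at 300 mOsm and 5903 and 5423 at 500 mOsm with Neg-siRNA, 3037 and 2729 with Nfat5-1-siRNA and 3048 and 2520.4 with Nfat5-2-siRNA and missed the rise threshold.

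Receptors and signalling proteins were the largest list among the members. They included the adenosine receptor ADORA2A, the zinc-sensing receptor GPR39, the orphan receptor GPR19, the membrane progestin receptor PAQR5, RANK (TNFRSF11A), protein kinase C epsilon (PRKCE), the Tec family kinase BMX, the Raf and MEK scaffold KSR1, the ribosomal S6 kinase RPS6KA2, the Rap exchange factor RAPGEF5, the Rab GTPase-activating protein SGSM3, the nuclear receptor RORA, cyclin Y (CCNY) and the E2F partner TFDP2. Of the 15 genes listed, 14 could be paired with an identifier and 14 were members. Hyperosmolality raised 14 of the 14 and lowered 0, and the calls were 11 lower and 0 higher with Nfat5-1-siRNA and 13 lower and 0 higher with Nfat5-2-siRNA (adjusted p under 0.05, edgeR, where 11.3% of all genes were higher and 4.53% and 7.38% lower). ADORA2A (chromosome 26, 28141076 to 28150600) had 5.504 and 9.72 at 300 mOsm and 825 and 761 at 500 mOsm with Neg-siRNA, 381 and 198 with Nfat5-1-siRNA and 364 and 352 with Nfat5-2-siRNA. It was close to undetected at 300 mOsm and kept most of its log2 rise with either construct. BMX (chromosome X, 11742532 to 11795513) had 0 and 5 counts at 300 mOsm and a rise of 252-fold (95% counting interval 108 to 777), and normalised counts of 0 and 6.07 at 300 mOsm and 556 and 752 at 500 mOsm with Neg-siRNA, 173 and 175 with Nfat5-1-siRNA and 181 and 133 with Nfat5-2-siRNA. PRKCE (chromosome 10, 47976769 to 48465314), with 1043 and 980.2 at 300 mOsm and 8904 and 6662 at 500 mOsm with Neg-siRNA, 4107 and 3168 with Nfat5-1-siRNA and 2261 and 2494 with Nfat5-2-siRNA, was lower with Nfat5-2-siRNA than with Nfat5-1-siRNA in each passage. CCNY and SGSM3 rose 4.66-fold and 6.38-fold, and 59.8% and 52.8% was undone.

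The list on cytoskeleton and cell structure held 10 genes, and all were members, since it was drawn up with the members known. SYNE1 encodes nesprin-1 of the nuclear envelope, PLS3 an actin bundler, PHACTR2 a regulator of actin and protein phosphatase 1, CDC42SE2 a small effector of Cdc42, HIP1 a clathrin and actin adaptor, SNX30 a sorting nexin, SPAG6 a protein of the ciliary axoneme and BFSP1 a filament protein of the lens. NPTX2, a secreted pentraxin of synapses, and LY6D, a surface protein of epithelial cells, are on the list although they are not cytoskeletal. All 10 were called higher with hyperosmolality and lower with each construct by edgeR's adjusted p, where 11.3% of all genes were called higher with hyperosmolality, and 4.53% and 7.38% lower in the 2 construct comparisons. The rule used these contrasts, so nothing is read from this count. PLS3 (chromosome X, 88354618 to 88399679) had counts of 20.2 and 51.02 at 300 mOsm and 1453 and 1469 at 500 mOsm with Neg-siRNA, 348 and 227 with Nfat5-1-siRNA and 368 and 578 with Nfat5-2-siRNA. SPAG6 (chromosome 2, 10735320 to 10804780) had 185 and 219 at 300 mOsm and 1973 and 1809.7 at 500 mOsm with Neg-siRNA, 681 and 551 with Nfat5-1-siRNA and 383 and 384 with Nfat5-2-siRNA. CDC42SE2 had 239 and 213 at 300 mOsm and 1614 and 1347 at 500 mOsm with Neg-siRNA, 569 and 318 with Nfat5-1-siRNA and 482 and 399 with Nfat5-2-siRNA. SPAG6 was lower with Nfat5-2-siRNA than with Nfat5-1-siRNA in both passages, PLS3 was higher in both, and CDC42SE2 had overlapping values, with shares undone of 64.1% and 64.5%.

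**Figure D3:**
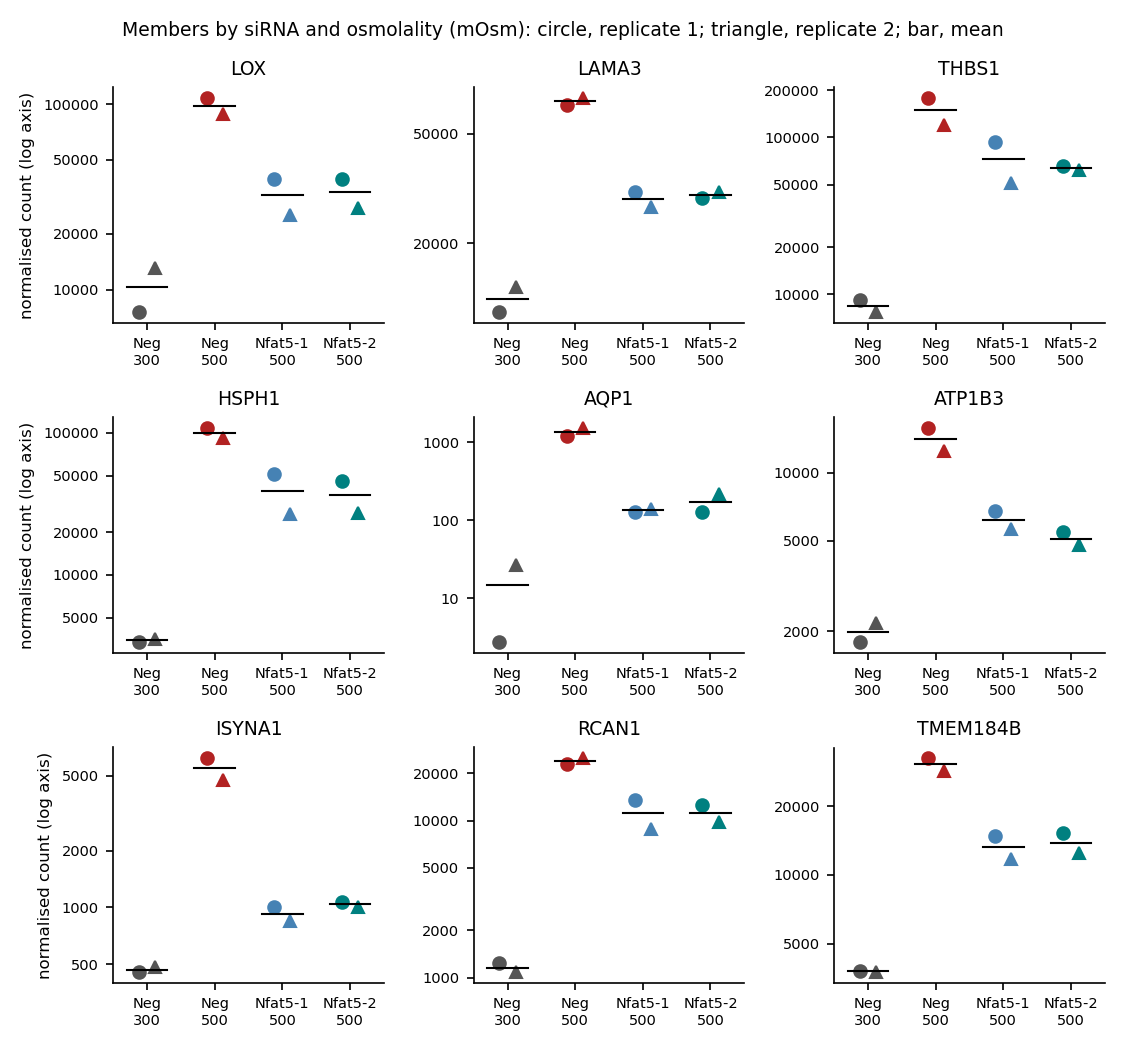
Normalised counts of 9 members on a log axis, 1 panel per gene, with a circle for replicate 1 (passage 15), a triangle for replicate 2 (passage 17) and a bar for the mean of each group. In every panel the Nfat5-siRNA libraries lie between the Neg-siRNA groups, from 843 to 1072 for ISYNA1, whose means were 1.98-fold and 2.22-fold the isosmotic mean, and from 51306 to 93872 for THBS1, far above it.

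**Figure D4:**
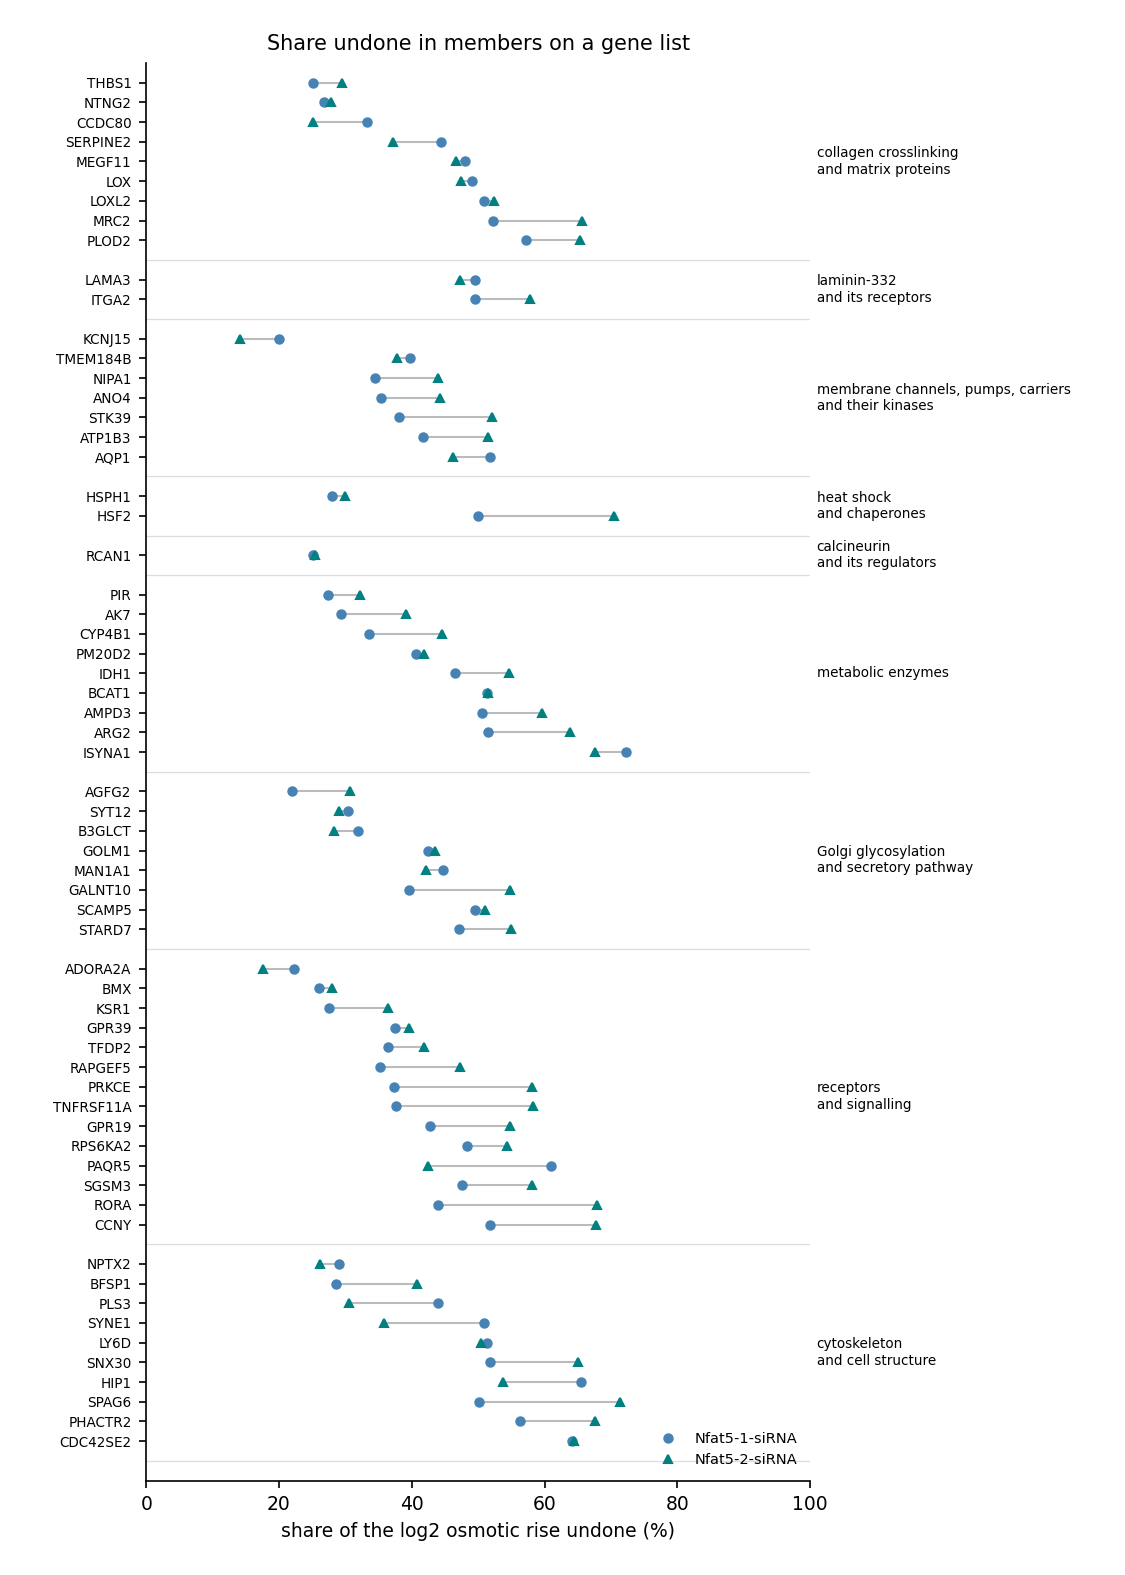
Share of the log2 osmotic rise undone (x axis, %) for members on one of the 9 lists, apart from those not reported here, with a circle for Nfat5-1-siRNA and a triangle for Nfat5-2-siRNA joined by a line, sorted within each list. KCNJ15 and ADORA2A have the smallest mean shares shown (17.1% and 19.9%) and ISYNA1 the largest (69.9%), and the lists overlap widely.

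A further 14 members with a symbol were on no list, and PGA, CEACAM16, SYNE3, LRRN4CL and MYCBPAP among them are described elsewhere in the text. LTBP1 stores latent TGF-beta in the matrix, PDPN (podoplanin) is a membrane mucin and ABCC1 is the efflux pump MRP1. LTBP1 had counts of 9515 and 7752 at 300 mOsm and 45589.8 and 32199 at 500 mOsm with Neg-siRNA, 25396 and 18317 with Nfat5-1-siRNA and 26579 and 17712 with Nfat5-2-siRNA, and ABCC1 had 1040.2 and 833 at 300 mOsm and 4629 and 3905 at 500 mOsm with Neg-siRNA, 2796 and 2058 with Nfat5-1-siRNA and 2492 and 1719 with Nfat5-2-siRNA. LTBP1 was close to the threshold for the fall with both constructs and ABCC1 with Nfat5-1-siRNA, and 37.9% and 41.9% of their rise was undone. The other 7 (PPP1R36, IQCJ-SCHIP1, SPATS2L, NYAP1, ATXN1, PRR5 and PDPN) had log2 rises from 2.01 to 3.29, with 32.3% to 50.3% undone. The 48 members known only by an identifier covered nearly the whole range, with log2 rises from 2.00 to 10.03 and 10.9% to 61.2% undone. On the scale of CPM (counts relative to the library total) per kilobase of exon, which allows levels of different genes to be compared, 3 of the 5 highest members in Neg-siRNA (500 mOsm) were known only by identifiers, ENSCAFG00000013762 (1554) among them. The others were THBS1 (928) and ARG2 (728). THBS1 stood at 51.8 and ARG2 at 133 on this scale at 300 mOsm, so ARG2 was the more abundant before the shift and THBS1 after it. The median member was at 4.53 at 300 mOsm and 38.3 at 500 mOsm with Neg-siRNA, 15.00 with Nfat5-1-siRNA and 14.7 with Nfat5-2-siRNA.

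Whether the constructs differed was asked by comparing Nfat5-2-siRNA with Nfat5-1-siRNA, a contrast that the rule did not use, although its thresholds keep the difference within bounds. Of the 126 members, 1 was called by edgeR (adjusted p under 0.05), where 0.0403% of all genes tested were called (8 of 19835, with 6 or 0.0302% higher and 2 or 0.0101% lower). This was ENSCAFG00000039868 (chromosome 2, 29660822 to 29689339), with 68.8 and 74.1 at 300 mOsm and 5849.9 and 8292 at 500 mOsm with Neg-siRNA, 519 and 378 with Nfat5-1-siRNA and 1718 and 1824 with Nfat5-2-siRNA. Both Nfat5-2-siRNA libraries were above both Nfat5-1-siRNA libraries, by 1.95 on the log2 scale (SE 0.20, adjusted p = 0.017, edgeR), and Nfat5-1-siRNA undid 60.2% of its rise and Nfat5-2-siRNA 30.2%. The call was lost (adjusted p from 0.092 to 0.67) with edgeR's own filter on low counts, with only the 4 libraries compared, and without any 1 of the 4 Nfat5-siRNA libraries, while the difference stayed between 1.74 and 2.20. Over all members the median difference was −0.06, beside −0.10 over the 9951 genes that reached a group mean of 400. The median absolute difference was 0.24 in the members and 0.21 in those genes. The sign of the members' median depended on single libraries. It was 0.20 without replicate 1 and −0.29 without replicate 2 of Nfat5-1-siRNA, and −0.17 and 0.01 without replicate 1 and replicate 2 of Nfat5-2-siRNA.

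With the passage as a block, which raised the count over all genes to 979 (4.94%), 8 members were called. These were 6.35% of the members, beside 8.49% of the 9951 genes that reached a group mean of 400, and the difference in share was not tested. In Neg-siRNA (500 mOsm) the median mean was 3711 in the members, beside 1802 in those genes. The rule chose the members for a high level in that group, which is not part of this comparison. In the groups compared, the members' median means were lower, 1280 with Nfat5-1-siRNA and 1199 with Nfat5-2-siRNA. Of the other strongly raised genes, 25 of the 135 that neither construct lowered were called. The numbers were 24 of the 62 that 1 construct lowered and 5 of the 26 brought back closer to the isosmotic level. The 62 were picked for a fall of 0.8 or more with only 1 construct. That choice builds in a difference between the constructs, so nothing is read from their number. The log2 differences (Nfat5-2-siRNA minus Nfat5-1-siRNA) were −0.71 for SPAG6, −0.70 for CYP4B1, −0.62 for PRKCE, −0.60 for HSF2 and −0.54 for SPATS2L, 0.72 for MYCBPAP, 0.80 for ENSCAFG00000008335 and 1.95 for ENSCAFG00000039868 (edgeR with the block, adjusted p from 1.2e-19 to 0.029). CYP4B1 had counts of 34.9 and 21.9 at 300 mOsm and 2399.6 and 2231 at 500 mOsm with Neg-siRNA, 678 and 389 with Nfat5-1-siRNA and 392 and 268 with Nfat5-2-siRNA. Several of these differences depended on single libraries. Without the block and with 1 library left out, that of CYP4B1 lay between −1.07 without Nfat5-1-siRNA replicate 2 and −0.27 without Nfat5-1-siRNA replicate 1. That of SPATS2L lay between −0.86 and −0.16 for the same libraries, and that of MYCBPAP between 0.41 without Nfat5-2-siRNA replicate 2 and 1.03 without Nfat5-2-siRNA replicate 1. In CYP4B1 the constructs overlapped across passages but not within one. MYCBPAP had 381 and 423 at 300 mOsm and 1888 and 2471 at 500 mOsm with Neg-siRNA, 698 and 681 with Nfat5-1-siRNA and 933 and 1426 with Nfat5-2-siRNA, and its exons overlap those of a gene on the same strand with more counts, so its value is uncertain.

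The rule used the means of both passages, so the values within each passage are a description too. All 126 members rose and were lower with each construct within passage 15 alone and within passage 17 alone, and 126 and 125 stayed above the isosmotic level with each construct. The median log2 rise was 3.34 in passage 15 and 3.15 in passage 17. The median fall with Nfat5-1-siRNA was −1.11 in passage 15 and −1.60 in passage 17, and with Nfat5-2-siRNA it was −1.35 and −1.44. The median share undone was 35.9% in passage 15 and 48.1% in passage 17, and it was higher in passage 17 for 114 of the 126 members. For Nfat5-1-siRNA it was 33.7% and 49.5%, higher in passage 17 for 120 members, and for Nfat5-2-siRNA 38.1% and 46.2%, higher for 94. Each value rests on 1 library per group and passage, and the difference between the passages in the share was not tested.

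**Figure D5:**
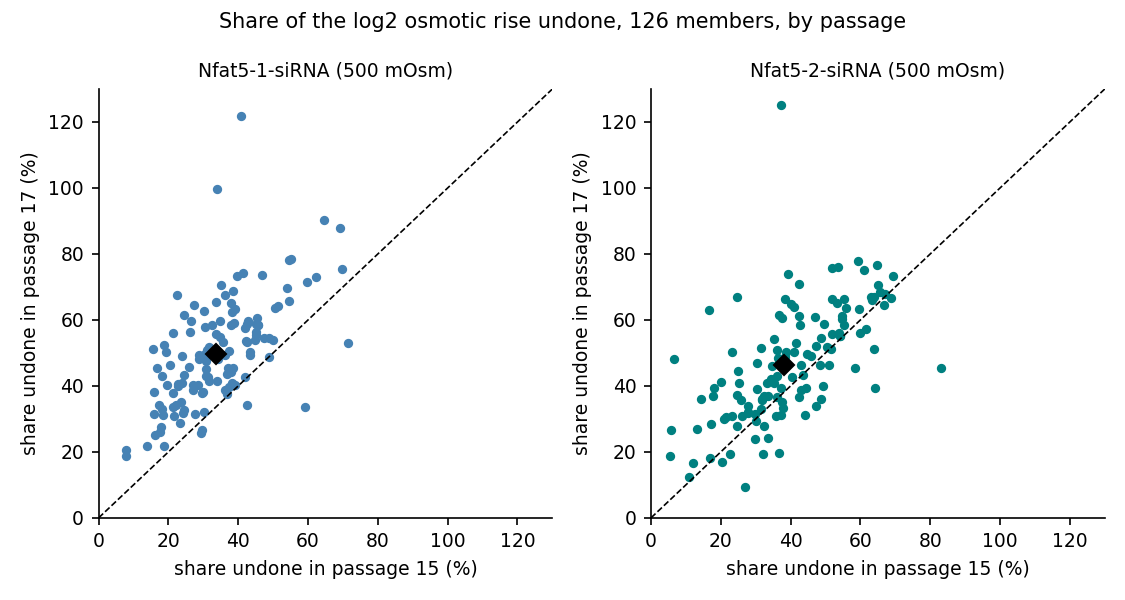
Share of the log2 osmotic rise undone (%) in passage 17 (y axis) against passage 15 (x axis), 1 point per member, for Nfat5-1-siRNA (left) and Nfat5-2-siRNA (right), with the medians as black diamonds and equality as the dashed line. The Nfat5-1-siRNA points lie above the line for 120 of the 126 members and the Nfat5-2-siRNA points for 94.

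The median log2 difference of the members, passage 17 minus passage 15, was −0.45 with Nfat5-1-siRNA, with 111 of 126 members lower, and −0.16 with Nfat5-2-siRNA, with 80 lower. Over the 9951 genes that reached a group mean of 400, 48.4% and 46.1% were lower. In Neg-siRNA (500 mOsm) the median difference was −0.02 and in Neg-siRNA (300 mOsm) 0.11. Over the same 9951 genes the medians ran from −0.05 in Neg-siRNA (500 mOsm) to 0.03 with Nfat5-2-siRNA. The 26 genes brought back closer to the isosmotic level had −0.44 with Nfat5-1-siRNA, the 62 that 1 construct lowered had −0.36, and the 135 that neither construct lowered had −0.02.

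Tested across all 4 groups in 1 fit (edgeR, groups plus passage), 26 members differed between the passages, 22 lower and 4 higher in passage 17, where 3.29% of all tested genes were called (2.02% lower and 1.28% higher). Of the strongly raised genes that neither construct lowered 26 of 135 were called, 15 of them lower, and the numbers were 12 of 62 for those that 1 construct lowered and 11 of 26 for those brought back closer to the isosmotic level. Among the members with a symbol that were called, the largest differences were −0.87 for LOXL2, 0.79 for LRRN4CL, a leucine-rich repeat protein, −0.46 for LTBP1, −0.46 for HSPH1 and −0.45 for SPATS2L, with adjusted p from 1.1e-06 to 0.0079 by edgeR. LRRN4CL had counts of 50.5 and 80.2 at 300 mOsm and 619 and 1258 at 500 mOsm with Neg-siRNA, 341 and 410.4 with Nfat5-1-siRNA and 245 and 532 with Nfat5-2-siRNA. Passage 17 was higher in each group for LRRN4CL and lower in each group at 500 mOsm for LOXL2, LTBP1 and HSPH1. The largest of all called differences were those of identifiers with no symbol, such as ENSCAFG00000006942 (−1.44), with 0 and 9.72 at 300 mOsm and 2921 and 1333 at 500 mOsm with Neg-siRNA, 1549 and 494 with Nfat5-1-siRNA and 1898 and 539 with Nfat5-2-siRNA. The number of members called fell to 3 with edgeR's own filter on low counts and to 11 with DESeq2, and the calls of LOXL2, HSPH1 and ENSCAFG00000006942 were lost with both, those of LRRN4CL, LTBP1 and SPATS2L with the filter. With the filter the log2 differences themselves hardly moved, at −0.87 for LOXL2, −0.46 for HSPH1, 0.78 for LRRN4CL, −0.46 for LTBP1 and −0.45 for SPATS2L. The difference of ENSCAFG00000006942 was −1.44 with the filter and −0.63 with DESeq2, and that of LOXL2 −0.82 with DESeq2. The number also depended on single groups. In this fit a group left with 1 library adds nothing to the passage difference. Leaving out either library of a group is therefore nearly the same check. The call of HSPH1 was lost with either Nfat5-siRNA group cut to 1 library. Its difference was −0.29 without either Nfat5-1-siRNA library and −0.36 without either Nfat5-2-siRNA library. The call of SPATS2L was lost without either Nfat5-1-siRNA library, and that of LRRN4CL without either Neg-siRNA (500 mOsm) library or without replicate 2 of Nfat5-2-siRNA. The number was 14 without replicate 1 or without replicate 2 of Neg-siRNA (500 mOsm), and 15 and 14 without replicate 1 and replicate 2 of Nfat5-2-siRNA. Without either Nfat5-1-siRNA library it was 19, of which 10 were higher in passage 17, and the median over members moved from −0.14 to −0.02.

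Members can also be chosen in 1 passage and measured in the other, in libraries that did not choose them. With passage 15 alone the rule gave 107 genes, 91 of them among the 126, and in passage 17 all 107 rose and all 107 were lower with each construct, with medians of 3.04, −1.66 and −1.61. In passage 17, 101 of the 107 stayed above the isosmotic level with Nfat5-1-siRNA and 104 with Nfat5-2-siRNA. All thresholds were met in passage 17 by 73 of the 107 (68.2%), beside 128 of the 9959 genes that reached a group mean of 400 in passage 15. With passage 17 alone the rule gave 125 genes, 103 of them among the 126, and 73 (58.4%) met all thresholds in passage 15, beside 110 of 9996. All 125 rose in passage 15, with a median of 3.59, and all 125 stayed above the isosmotic level with each construct. There, 125 were lower with Nfat5-1-siRNA and 124 with Nfat5-2-siRNA, with medians of −1.09 and −1.25. The threshold most often missed in passage 17 was the level kept above 300 mOsm with Nfat5-1-siRNA, met by 90 of 107, and in passage 15 it was the fall with Nfat5-1-siRNA, met by 99 of 125.

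The rule did not use a gene's length or position. Members had a median of 2328 exonic bases in 9 exonic stretches, and the 9951 genes that reached a group mean of 400 had 2507 bases in 10. The members lay on 36 chromosomes and 1 unplaced scaffold. In a comparison added after seeing the data, 19 of 126 (15.1%) had another member within 200 kb, and 4.17% of the other 9825 genes had a member that near, and within 1000 kb the shares were 21.4% and 15.6%. The 11 pairs within 200 kb included PIR and BMX on chromosome X, whose genes run away from each other from starts 9048 bases apart, B3GLCT and HSPH1 on chromosome 25, 34074 bases apart and also divergent, and AGFG2 and NYAP1 on chromosome 6. PIR had counts of 1966 and 1949.5 at 300 mOsm and 16112 and 17052 at 500 mOsm with Neg-siRNA, 10278 and 8204 with Nfat5-1-siRNA and 8318 and 8350.4 with Nfat5-2-siRNA. PIR rose 8.47-fold from a level already high at 300 mOsm, and BMX rose from nearly 0. ATP1B3, ENSCAFG00000039338 and TFDP2 lay together on chromosome 23, and the spans of the first pair overlap on opposite strands, although they share no exonic bases. Promoter sequences were not analysed here.

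Reads were counted without regard to strand, and 9 members share exonic bases with another gene. For PIR, PRR5, GPR39 and TNFRSF11A the other gene had at most 138 counts in all. LOXL2, ISYNA1 and MYCBPAP share bases with genes that had more counts than they did (25927, 21808 and 46421 summed over the libraries, against 14749, 15401 and 8873), so their values are less certain. The gene most like the members outside them, by Pearson's r of its 8 centred log2 values with the members' median profile, was AKR1B1 (r = 0.995), which the rule left out by name, followed by FOPNL, a centrosomal protein (0.992), and SLC6A6, the taurine carrier (0.992), also left out by name. FOPNL had 1301 and 1460.0 at 300 mOsm and 3699 and 4044 at 500 mOsm with Neg-siRNA, 2710.3 and 2441 with Nfat5-1-siRNA and 2417 and 2467 with Nfat5-2-siRNA. Its groups had the same order as in the members, but its rise and both falls were short of the thresholds. The members' own r ran from 0.683 to 0.997 with a median of 0.970.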

How the data were processed

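RNA of MDCK I cells was sequenced in 8 libraries. Per the submitters' processing notes and the file header, the authors mapped the reads with HISAT2 2.0.5 to CanFam 3.1 and counted them on Ensembl 92 exons with featureCounts 1.5.1 and strand option 0. The authors deposited these read counts per gene without normalization. The command had no option for counting fragments, so mates may have been counted separately and counting intervals are then too narrow. No library column was left unused (0). The file also gives exon coordinates and exonic lengths, from which positions were taken.

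Size factors were medians of ratios to the geometric mean over genes counted in all libraries. For tests, the 19835 genes whose counts summed to 5 or more were fitted with edgeR 4.0.16 (TMM, quasi-likelihood, R 4.3.3, 4 groups) and p-values adjusted by Benjamini-Yekutieli, with 0.05 as the threshold. Nfat5-2-siRNA was compared with Nfat5-1-siRNA, and passage 17 with passage 15 in a fit with groups and passage. Tests were two-sided. SE values were derived from the F statistic. DESeq2 1.42.0 was an alternative. Values were handled in Python 3.11.15. The labels give the passage of each replicate, which pairs the samples. The passage differences of the 9951 genes that reached a group mean of 400 correlated in each of the 6 pairings of groups (Pearson's r between 0.147 and 0.556, across genes).

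Symbols came from the list of 989 genes published with the study, by identifier (860 have a symbol), so other listed genes were not analysed here. Some listed genes are counted but not reported here by name. The members, the lists and the tests were chosen with earlier results of these data known. Named are the members with the 5 largest rises, some of those with the 5 highest levels per exonic length, and the 5 largest and 5 smallest shares undone. Also named are the genes nearest each threshold, members on a list, TMEM184B, some members called in the tests, some without a symbol, and the 3 most similar other genes. The passages on the lists give full values for at most 4 members per list, and other passages give those of further members. Alternatives were other scalings, filters, adjustments and minimum means, each passage alone, and leaving out each library.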

Additional observations from a re-analysis of the deposited data

Results flagged for a closer look

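For ENSCAFG00000039868, a gene on chromosome 2 with no symbol here, the constructs were called different in a test that depended on the fit. The log2 difference between Nfat5-2-siRNA and Nfat5-1-siRNA was 1.95 (SE 0.20, adjusted p = 0.017, edgeR), the only such call among the 126 members in the fit without the passage as a block. The call was lost with edgeR's filterByExpr (adjusted p = 0.092), with only the 4 libraries compared (adjusted p = 0.67) and without any 1 of the 4 Nfat5-siRNA libraries. In these fits the difference stayed between 1.74 and 2.20. The call was kept with DESeq2 (adjusted p = 5.7e-15), and in edgeR with no filter on the summed count (adjusted p = 2.9e-12) and with the passage as a block (adjusted p = 1.2e-19). With Nfat5-1-siRNA the counts were 519 and 378, and with Nfat5-2-siRNA 1718 and 1824. Both constructs left it above its isosmotic counts of 68.8 and 74.1. Groups of 2 libraries are too small for a test of single outlying libraries.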

How the results depend on the processing

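The number of members was 126 and ranged from 101 to 152 over other minimum means, TMM scaling, an added constant of 10 and single passages, and from 108 to 130 with 1 library left out. The median share undone was 42.0% on the log2 scale, 69.6% on the linear scale by its construction, and 38.1% to 46.9% with 1 library left out. For Nfat5-2-siRNA against Nfat5-1-siRNA, 8 genes were called. DESeq2's size factors in edgeR gave 34, no filter 337, DESeq2 213, the Benjamini-Hochberg adjustment 186, and the pairing by passage as a replicate block 979 genes. Only the 4 libraries compared, and edgeR's filterByExpr, gave 0 genes each, with 2702 and 2737 at an unadjusted p under 0.05. Without any 1 of these 4 libraries 0 to 3 genes were called. Among the members 1 was called, 8 with the replicate block, and 0 in the other fits that gave 0 over all genes (13 and 17 at an unadjusted p under 0.05) and without any 1 of the 4 Nfat5-siRNA libraries, where 13 to 32 had an unadjusted p under 0.05. A group left with 1 library was assumed to vary like the others. For passage 17 against passage 15, 653 genes and 26 members were called. These were 315 to 681 and 14 to 29 with 1 library left out, 101 and 3 with filterByExpr, 485 and 11 with DESeq2, and 1570 and 39 with the Benjamini-Hochberg adjustment. The causes were not tested. Of the values of single members named for these tests, none changed sign, 75 of 88 and 102 of 154 kept their side of the threshold. The search of promoters for motifs was not run. Low counts at 300 mOsm limit the rises and shares undone of the 14 members with under 30 counts in both libraries together, which include PGA, BMX, KCNJ15, ADORA2A, MEGF11, NTNG2, AQP1, ENSCAFG00000008366 and ENSCAFG00000006942.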
